A study of Sus scrofa with 16 samples.

Results

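The genes ESR2, PGR and PTGES were followed through the elongation of the pig embryo in the uterus. ESR2 is oestrogen receptor beta, PGR is the progesterone receptor and PTGES is a prostaglandin E synthase. They were chosen by their symbols in the probe annotation, and each was measured by 1 probe (ESR2 by probe 7, PGR by probe 1013 and PTGES by probe 427), so they are 3 of 638 genes named on the array and take 3 of its 1015 probes. No intensity enters that rule, but the genes were proposed with earlier results of these data known, so the p-values below describe the fit and support nothing further.

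RNA of whole pig embryos was amplified, radioactively labelled and hybridised to cDNA macroarrays, membranes spotted with cDNA products. There were 4 arrays for each of 4 stages, 16 in all. Small spherical embryos were 1 to 5 mm long and large spherical embryos 6 to 11 mm, tubular embryos measured 13 to 45 mm, and filamentous embryos exceeded 100 mm. The labels name no treatment, breed or day of pregnancy, and do not say whether each array had its own sow or litter, so a p-value here reflects only how far these samples differ, which may be technical. Because RNA of whole embryos was measured, fewer cells of a type and less RNA per cell cannot be told apart.

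To make prostaglandin E, a cyclooxygenase turns arachidonic acid into prostaglandin H, and PTGES converts it to prostaglandin E. In the pig, conceptus oestrogen is the classical signal by which the mother recognises pregnancy, and prostaglandin E from the conceptus and the endometrium is known for protecting the corpus luteum, the source of progesterone. ESR2 and PGR are nuclear receptors that bind these steroids and then act as transcription factors; in the uterus, PGR is known to be lost from the epithelia before attachment and kept in the stroma.

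The arrays had median intensities of 62.8 to 71.4 over 1015 probes, and Spearman correlations between arrays of 0.794 to 0.974. The 4 arrays numbered 1, 1 per stage, scored 8.17 to 16.3 on the first principal component (23.2% of the variance), against -9.40 to 4.25 for the other 12, so values of the other 12 arrays are given beside the results. Small spherical replicate 3 and filamentous replicate 1 were named in earlier results of these data as lying toward other stages, and results are also given without both. Of 6 trophectoderm markers the keratins KRT8, KRT18 and KRT19 were measured. KRT18 stood above percentile 92 on every array and KRT8 at percentiles 5.72 to 27.0, and the 3 had summed intensities of 326 to 459 at the small spherical, 354 to 457 at the large spherical, 374 to 443 at the tubular and 356 to 465 at the filamentous stage. Of 8 uterine markers, ACP5 and VIM were measured, with sums of 57.2 to 72.1, 39.4 to 54.1, 52.7 to 86.7 and 72.5 to 95.1 in the same order of stages. The 2 went different ways from the small spherical to the filamentous stage, with means of 35.8 and 61.2 for VIM and 25.7 and 19.6 for ACP5. Of 7 blood and immune markers, CD3E was measured, at 1.79 to 3.00, 1.83 to 4.34, 0.330 to 2.08 and 1.71 to 3.63. Of 8 hypoblast markers 5 were measured, with sums of 303 to 424, 338 to 443, 374 to 429 and 436 to 592, and of 3 embryonic disc markers 0 were measured. The hypoblast markers also differed. Small spherical and filamentous means were 120 and 172 for APOA1, 35.9 and 64.2 for RBP4, and 147 and 191 for FN1. They were 57.8 and 56.3 for AFP and 26.6 and 11.5 for TF. No measured marker was listed at 0, and the part of other cell types in the results was not tested.

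PTGES and ESR2 had higher mean intensities in each of the 3 later stages than in small spherical embryos, by 1.75 to 1.98-fold for PTGES and by 2.78 to 3.31-fold for ESR2 (ratios of geometric means; 3 of 4 small spherical ESR2 values were near the bottom of the scale), whereas PGR stayed near the dim end of every array. In the moderated F test of limma over the 4 stages, 0 of 3 genes passed an adjusted p of 0.05, where 0.394% of the 1014 probes tested passed (4 probes). At an unadjusted p under 0.05, 2 of 3 passed (PTGES and ESR2), against 10.4% of all probes. Over the 18 pairs of gene and contrast, 0 passed after adjustment. PTGES and ESR2 had an unadjusted p under 0.05 in the 3 contrasts with small spherical embryos, 6 pairs in all, against 9.37% of probes for large spherical, 11.4% for tubular and 14.6% for filamentous minus small spherical embryos. A spot's brightness depends on its probe as well as on its transcript, so levels are not compared between genes.

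**Figure D1:**
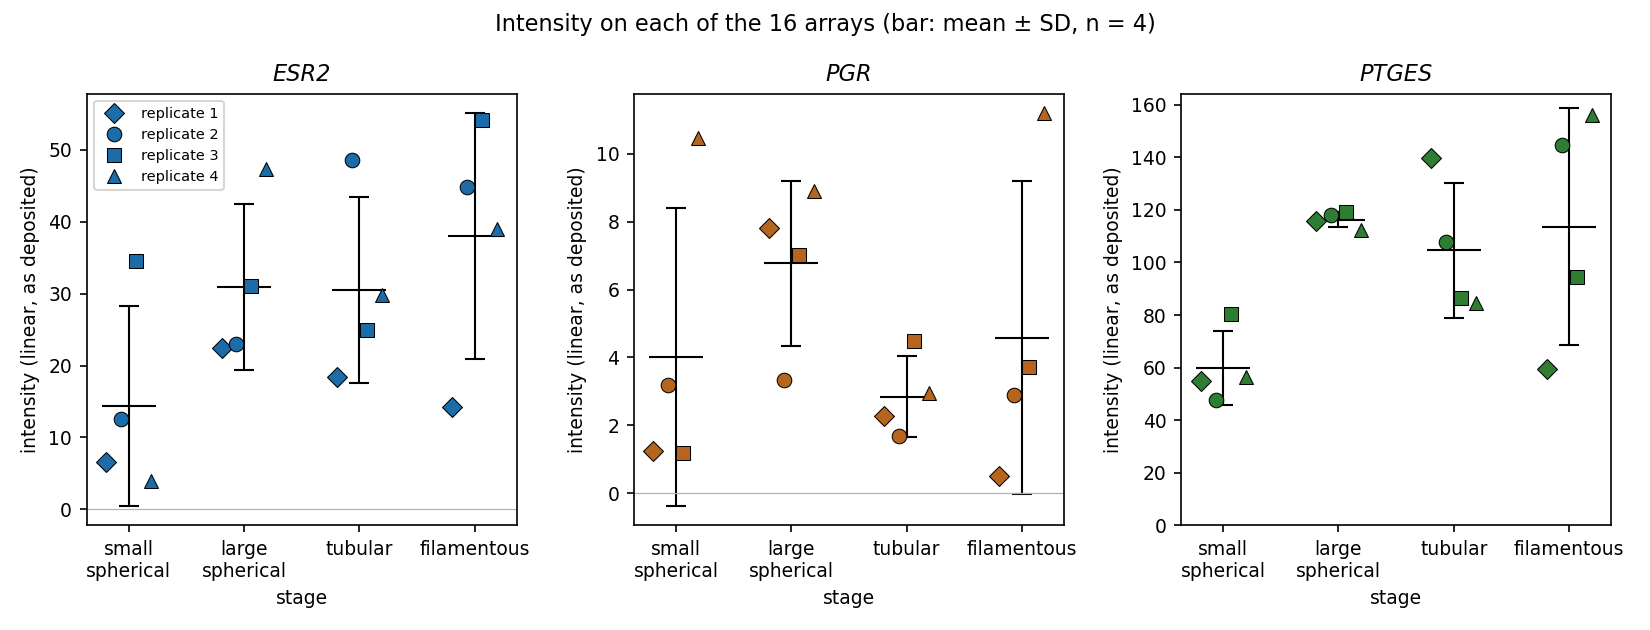
Intensity (linear, arbitrary units) of PTGES, ESR2 and PGR on each of the 16 arrays by stage, with marker shapes for the replicate number and bars for the mean ± SD of 4 arrays. PTGES lay at 112.5 to 119.2 in large spherical and 47.8 to 80.3 in small spherical arrays, while the PGR values of the 4 stages overlapped.

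The PTGES spot stood between percentiles 37.8 and 84.9 of the probes of its arrays. Its intensities on replicates 1 to 4 were 54.8, 47.8, 80.3 and 56.2 at the small spherical stage, 115.6, 118.0, 119.2 and 112.5 at the large spherical stage, 139.6, 108.0, 86.5 and 84.5 at the tubular stage, and 59.5, 144.6, 94.4 and 156.2 at the filamentous stage. All 4 large spherical and all 4 tubular arrays lay above the highest small spherical array, and so did 3 of 4 filamentous arrays, the exception being replicate 1. The 4 large spherical arrays lay close together and the filamentous arrays far apart. From the small spherical to the filamentous stage the means were 59.8 ± 14.2, 116 ± 2.95, 105 ± 25.6 and 114 ± 45.0 (SD, n = 4 each). In order of the means, tubular, filamentous and large spherical embryos were neighbours whose arrays overlapped.

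Large spherical minus small spherical embryos differed in PTGES by 0.99 ± 0.27 on the log2 scale (SE; 95% interval 0.41 to 1.57), with a limma adjusted p of 0.110, where 0.394% of probes passed. All 4 arrays above all 4 small spherical ones was also seen for 3.85% of probes in that step. Tubular minus small spherical embryos differed by 0.80 (0.22 to 1.39; limma adjusted p = 0.182; 0.394% of probes passed), and filamentous minus small spherical embryos by 0.86 (0.27 to 1.44; limma adjusted p = 0.155; 0.888% of probes passed). Separation of all tubular from all small spherical arrays in the same direction was seen for 4.54% of probes. Between the later stages the differences were small beside their error: -0.18 for tubular minus large spherical (-0.76 to 0.40), 0.05 for filamentous minus tubular and -0.13 for filamentous minus large spherical, for which 0% of probes passed in each. The moderated F test gave PTGES a p of 0.0100 and an adjusted p of 0.238, which ranked it 42 of 1014 probes.

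Between arrays of the same number, large minus small spherical gave PTGES differences of 1.08, 1.31, 0.57 and 1.00 on the log2 scale. Their shared sign follows from the separation of the 2 stages given above and adds nothing to it. For this contrast, the limma fit with the replicate number as a block gave an adjusted p of 0.131. Filamentous minus small spherical gave 0.12, 1.60, 0.23 and 1.47. Residuals of same-numbered arrays correlated at 0.0328 to 0.469 in that contrast, so its arrays are not taken as pairs and these values depend on the numbering. On the 12 arrays numbered 2 to 4 the limma differences were 0.96 ± 0.24 for large minus small spherical (adjusted p = 0.131) and 1.10 ± 0.24 for filamentous minus small spherical (adjusted p = 0.0637). Without filamentous replicate 1 they were 0.99 and 1.13, with limma adjusted p of 0.0475 and 0.0414. That array is the lowest of its stage, so leaving it out widens the second difference by construction. Over the fits with a single array left out, 1 to 26 probes passed the first contrast and 3 to 28 the second. With other single arrays left out, the differences went down to 0.89 without small spherical replicate 2 (limma adjusted p = 0.280) and 0.67 without filamentous replicate 4 (limma adjusted p = 0.383).

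The ESR2 spot stood between percentiles 1.48 and 41.2 of the probes of its arrays. Its intensities on replicates 1 to 4 were 6.60, 12.6, 34.6 and 3.91 at the small spherical stage, 22.4, 23.0, 31.0 and 47.3 at the large spherical stage, 18.4, 48.6, 24.99 and 29.9 at the tubular stage, and 14.2, 44.9, 54.1 and 38.9 at the filamentous stage. Small spherical replicate 3 stood well above the other 3 arrays of its stage, so that 5 of 12 later arrays lay above the highest small spherical array. Above the small spherical median lay 12 of 12, as for PTGES, and for PGR 10 of 12 did. The share of all probes with such counts was not worked out. The other 3 small spherical ESR2 values lay 2.67 to 7.25 grid steps above the lowest value of their arrays (the step is the spacing of the deposited values, 0.815 to 1.67 per array). Those steps lie within the range seen for PGR, so the differences of ESR2 from the small spherical stage rest on intensities near the bottom of the scale. The array numbered 1 was the lowest of its stage in all 3 later stages, as it was for 7.5% of probes. Mean ESR2 intensities of the 4 stages, from the shortest embryos to the longest, were 14.4 ± 13.9, 30.9 ± 11.6, 30.5 ± 12.9 and 38.0 ± 17.1 (SD, n = 4 each), and neighbours in the order of the means overlapped throughout.

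The log2 differences of ESR2 from small spherical embryos carried an SE of 0.57, against 0.27 for PTGES. They were 1.52 for large spherical (95% interval 0.30 to 2.74; limma adjusted p = 0.310), 1.47 for tubular (0.25 to 2.69; limma adjusted p = 0.264) and 1.73 for filamentous embryos (0.51 to 2.94; limma adjusted p = 0.169). Between the later stages they were -0.05 for tubular minus large spherical (-1.26 to 1.17), 0.25 for filamentous minus tubular (-0.97 to 1.47) and 0.21 for filamentous minus large spherical (-1.01 to 1.43), intervals that all hold 0 and reach past 1. The F test gave a p of 0.0315 and a limma adjusted p of 0.397, which ranked ESR2 80 of 1014 probes.

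By replicate number, large minus small spherical gave ESR2 differences of 1.76, 0.87, -0.15 and 3.60, and filamentous minus small spherical gave 1.10, 1.83, 0.65 and 3.32. Sizes varied widely, and replicate 3 was negative in the first. Residuals of same-numbered arrays correlated at 0.0328 to 0.469 in the second, so its arrays are not taken as pairs. For large minus small spherical, the limma fit with the replicate number as a block gave an adjusted p of 0.189. On the 12 arrays numbered 2 to 4 the differences were 1.44 ± 0.62 (limma adjusted p = 0.424) and 1.93 ± 0.62 (limma adjusted p = 0.207). Without small spherical replicate 3 they were 2.10 and 2.31, with limma adjusted p of 0.0343 and 0.0237. Without small spherical replicate 4, the lowest of its stage, they were 1.05 and 1.26, with limma adjusted p of 0.726 and 0.328. Replicate 3 is the highest of its stage, so leaving it out widens both differences by construction. Over the fits with a single array left out, 1 to 26 probes passed large minus small spherical and 3 to 28 filamentous minus small spherical. An offset of 16 added before log2 gave 0.69 and 0.86.

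Leaving out both small spherical replicate 3 and filamentous replicate 1 put ESR2 and PTGES past the threshold in the F test, with limma adjusted p of 0.0186 for ESR2 and 0.0292 for PTGES, where 1.68% of probes passed. PGR had an adjusted p of 0.796. Against small spherical embryos, ESR2 then differed by 2.10 at the large spherical, 2.06 at the tubular and 2.73 at the filamentous stage, and PTGES by 1.14, 0.96 and 1.29 in the same order. All 6 of these passed, with limma adjusted p of 0.00543 to 0.0332, in contrasts where 2.86% to 3.55% of probes passed. For both genes these 2 arrays held the highest small spherical and the lowest filamentous value, so leaving them out widens the differences by construction.

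**Figure D2:**
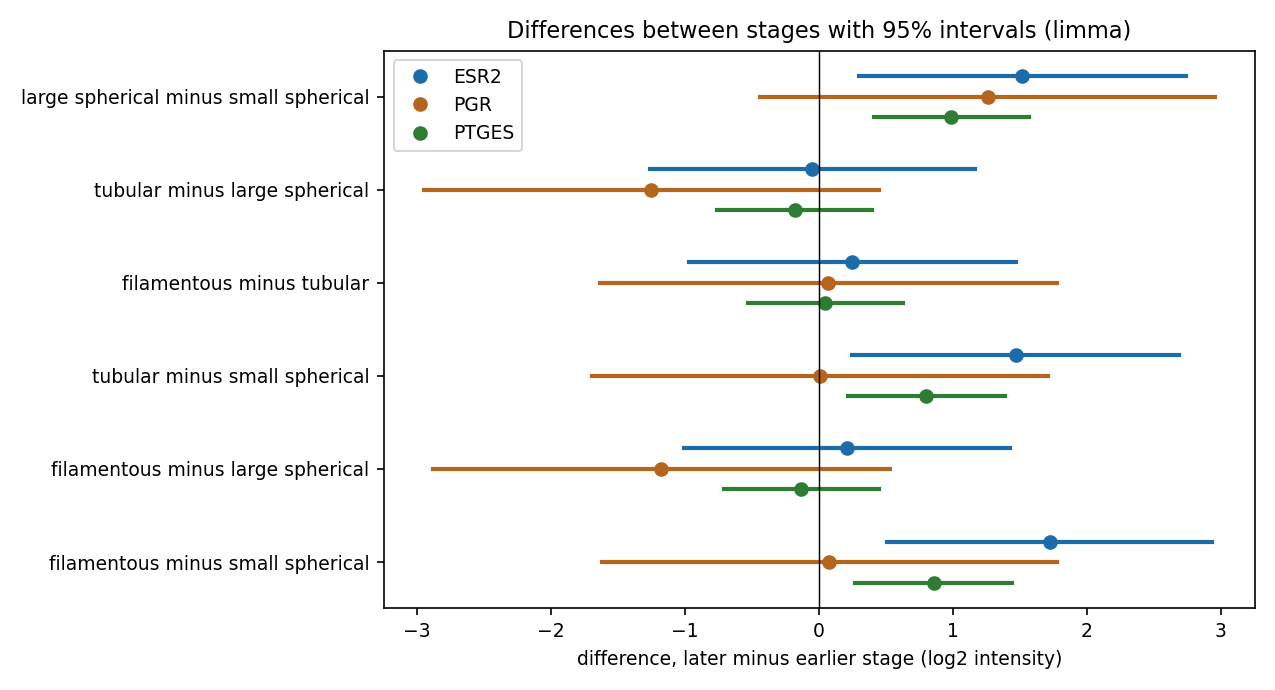
Log2 differences (later minus earlier stage) of PTGES, ESR2 and PGR in the 6 contrasts, with 95% intervals from the limma fit to 16 arrays. The intervals of PTGES and ESR2 lie above 0 in the 3 contrasts with small spherical embryos, all with an adjusted p above 0.05, and every interval of PGR holds 0.

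PGR was among the dimmest features, between percentiles 0.296 and 6.16 of its arrays. Its intensities on replicates 1 to 4 were 1.25, 3.20, 1.19 and 10.4 at the small spherical stage, 7.82, 3.33, 7.01 and 8.91 at the large spherical stage, 2.26, 1.69, 4.48 and 2.95 at the tubular stage, and 0.517, 2.89, 3.73 and 11.2 at the filamentous stage. The stages overlapped, and replicate 4 was the highest of its stage in small spherical, large spherical and filamentous embryos. On the grid of deposited values PGR stood 0 to 9 steps above the lowest value of its array, with filamentous replicate 1 at that lowest value. A measured floor for PGR cannot be given, since the table names no blank spot.

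Mean PGR intensity was 4.02 ± 4.39 at the small spherical, 6.77 ± 2.42 at the large spherical, 2.85 ± 1.20 at the tubular and 4.58 ± 4.61 at the filamentous stage (SD, n = 4 each). Large spherical minus small spherical gave 1.26 on the log2 scale (95% interval -0.44 to 2.96; limma adjusted p = 0.729), and tubular minus large spherical gave -1.25 (-2.95 to 0.45; limma adjusted p = 0.999). In the second of these the arrays of the stages overlapped, and by replicate number the differences were -1.79, -0.98, -0.65 and -1.59. Residuals of same-numbered arrays correlated at -0.117 to 0.455 in that contrast, so its arrays are not taken as pairs. On arrays 2 to 4 tubular minus large spherical was -1.07 ± 0.75 (limma adjusted p = 0.981). Filamentous minus small spherical gave 0.08 (-1.62 to 1.78), an interval that holds more than a 2-fold change either way. The F test gave a p of 0.348 and a limma adjusted p of 0.822, which ranked PGR 426 of 1014 probes. For PGR by replicate number, large minus small spherical gave 2.65, 0.06, 2.56 and -0.23, and on arrays 2 to 4 the difference was 0.80 ± 0.75 (limma adjusted p = 0.764). The limma fit with the replicate number as a block gave this contrast an adjusted p of 0.492.

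The residual SD within stages on the log2 scale was 0.397 for PTGES, 0.890 for ESR2 and 1.25 for PGR, against a median of 0.376 over all probes. Dim probes spread more on these arrays, and the 3 probes stood at percentiles 62.3 (PTGES), 16.6 (ESR2) and 1.48 (PGR) of mean brightness, so these SDs are not compared between the genes. The share of variance that lay between stages was 56.1% for PTGES, 44.3% for ESR2 and 19.4% for PGR, beside a median of 19.6% over all probes.

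**Figure D3:**
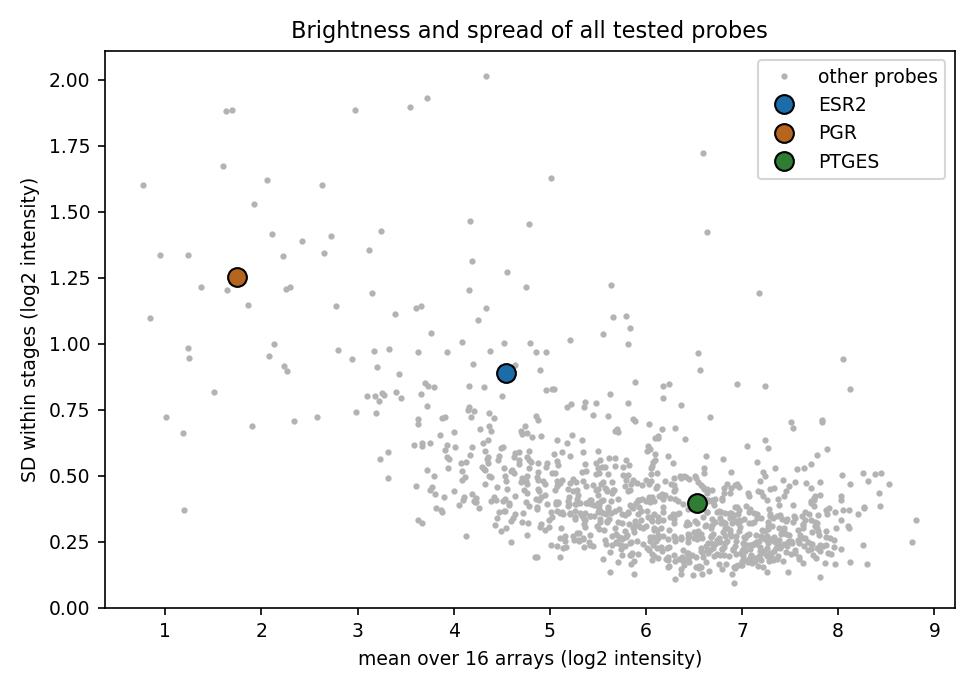
Residual SD within stages (log2) against mean log2 intensity for the 1014 probes tested, 1 point per probe, with PTGES, ESR2 and PGR marked. Dim probes spread more, and the marked SDs are 0.397 for PTGES, 0.890 for ESR2 and 1.25 for PGR.

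Across the 16 arrays, log2 intensities of ESR2 and PTGES had a Pearson r of 0.70 and a Spearman rho of 0.51. With the stage means removed r was 0.44, on the 12 arrays numbered 2 to 4 it was 0.72, and without the 2 arrays farthest from the ESR2 median it was 0.55. PGR had r of 0.09 with ESR2 and 0.38 with PTGES, and -0.32 and 0.13 on the 12 arrays numbered 2 to 4. These are descriptions: on each array, both genes of a pair share its membrane, its amplified target and its stage.

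Of 636 other genes, those most like ESR2 over the 16 arrays were CYB5B (r = 0.91), an outer mitochondrial membrane cytochrome, ATG4D (r = 0.88), an autophagy protease, and PLAC1 (r = 0.87), a gene of the trophoblast. Their Spearman rho was 0.83, 0.84 and 0.84. With stage means removed r was 0.85, 0.80 and 0.81, without the 2 arrays farthest from the ESR2 median it was 0.77, 0.75 and 0.80, and 26 genes had an r over 0.7 with ESR2. The genes most like PTGES were the ribosomal protein gene RPL13A (r = 0.89), the membrane protein gene TM4SF1 (r = 0.89) and the growth factor gene TGFB3 (r = 0.86), with 0.83, 0.77 and 0.73 after removal of stage means, 0.88, 0.82 and 0.78 without the 2 arrays farthest from the PTGES median, and 19 genes over 0.7. Their Spearman rho was 0.79, 0.87 and 0.77. For PGR the closest were the peptide transporter gene SLC15A2 (r = 0.58), the topoisomerase gene TOP2A (r = 0.58) and PMVK (r = 0.57), an enzyme of the mevalonate pathway, and 0 genes were over 0.7. The Spearman rho of these genes with PGR was 0.51, 0.57 and 0.56, and with stage means removed r was 0.57, 0.62 and 0.64. Without the 2 arrays farthest from the PGR median r was 0.26, 0.35 and 0.36. Leaving out extreme values narrows the range of PGR and can lower r by itself, so how far the likeness rests on those arrays is not settled. On the 12 arrays numbered 2 to 4 the r with PGR were 0.37, 0.51 and 0.34, which ranked these genes 72, 33 and 87 of 636, and with the mean of each replicate number removed the r of TOP2A was 0.14. On the same 12 arrays the genes named for ESR2 had r of 0.90, 0.92 and 0.84 (ranks 5, 2 and 14) and those named for PTGES 0.90, 0.93 and 0.87 (ranks 2, 1 and 3).

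Of 27 other genes of prostaglandin synthesis, transport and reception, 1 was measured, PTGFR, the receptor of prostaglandin F. Its mean was 12.8 ± 4.46 at the small spherical, 13.7 ± 3.42 at the large spherical, 12.9 ± 1.19 at the tubular and 12.7 ± 1.51 at the filamentous stage (SD, n = 4 each). Large minus small spherical gave 0.13 ± 0.23 on the log2 scale, and 0 of 1 passed. The cyclooxygenases and the prostaglandin E receptors are not analysed here.

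Of 25 other steroid and nuclear receptors, 4 were measured (PGRMC1, RARA, RARB and RXRB) and 0 passed in any contrast of the limma fit, with RARA alone at an unadjusted p under 0.05, in filamentous minus tubular embryos, where 3.35% of all probes had one. Their median difference was -0.17 for large minus small spherical and -0.04 for filamentous minus small spherical, against -0.03 over all probes in both. PGRMC1, a membrane protein associated with progesterone binding, averaged 111 ± 26.3, 116 ± 11.0, 113 ± 15.7 and 114 ± 13.5 from small spherical to filamentous embryos, with a 95% interval of -0.30 to 0.47 on the log2 scale for large minus small spherical. RARA, a retinoic acid receptor, averaged 37.2 ± 4.01, 32.4 ± 11.0, 41.6 ± 5.21 and 27.7 ± 8.74 in the same order (limma F test adjusted p = 0.699), and RARB, another such receptor, 58.8, 58.9, 57.4 and 70.0 (limma F test adjusted p = 0.992).

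Of 22 chaperones and coregulators of steroid receptors, 6 were measured and 0 passed in the limma fit. HSP90AB1 had an unadjusted p under 0.05 in large and in tubular minus small spherical embryos, and HSPA8 in tubular and in filamentous minus small spherical. Of all probes, 9.37%, 11.4% and 14.6% had one in large, tubular and filamentous minus small spherical embryos. The list had medians of -0.10 for large minus small spherical and -0.19 for filamentous minus small spherical. HSP90AB1, a chaperone that holds steroid receptors ready to bind hormone, had means of 182 ± 177 at the small spherical and 290.1 ± 127 at the filamentous stage (SD, n = 4 each). It was at the maximum of its array on 4 arrays, 1 large spherical and 3 tubular. On tubular replicates 2 and 4 the maximum was shared by 5 and 8 probes. HSP90AB1 alone held it on large spherical replicate 3 and tubular replicate 3. Whether the scale was capped was not tested, so its means of 377 and 439 at these stages may be lower bounds. No difference is given for them. Its small spherical values on replicates 1 to 4 were 107.5, 159.7, 434 and 25.7, which is the same order of arrays as for ESR2. With ESR2 its r was 0.84 (Spearman rho 0.69) over 16 arrays, 0.80 with stage means removed and 0.51 without the 2 arrays farthest from the ESR2 median, with the 4 arrays at the maximum taken at their values. HSP90AA1, the inducible partner of HSP90AB1, averaged 83.7, 79.4, 67.6 and 57.7 over the 4 stages in order. HSPA8, a constitutive chaperone, averaged 42.5, 34.7, 31.1 and 31.4 from small spherical to filamentous embryos (-0.43 ± 0.16 on the log2 scale for filamentous minus small spherical, limma adjusted p = 0.223).

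Of 9 genes of steroid synthesis, whose products include the ligands of ESR2 and PGR, 4 were measured, and STAR, which carries cholesterol into mitochondria, passed in its 3 contrasts with small spherical embryos. STAR was higher by 1.72 ± 0.23 at the large spherical, 2.02 ± 0.23 at the tubular and 1.93 ± 0.23 at the filamentous stage (log2, SE; limma adjusted p of 0.00207, 0.00029 and 0.000499). This list had been chosen with the result for STAR known. The median difference of the 4 genes was 0.88 for large minus small spherical and 1.56 for filamentous minus small spherical, and an offset of 16 before log2 made them 0.55 and 0.85. The first was 0.58 without large spherical replicate 1 and 1.29 without large spherical replicate 4. CYP11A1, which makes pregnenolone from cholesterol, differed by 0.99 for large minus small spherical (limma adjusted p = 0.173), and CYP17A1, an enzyme on the way to androgens and oestrogens, by 2.12 for filamentous minus small spherical (limma adjusted p = 0.197). The small spherical CYP17A1 intensities were 6.60, 3.00, 5.01 and 2.18, at percentiles 0.690 to 4.44, so its difference rests on values near the bottom of the scale. Over the 16 arrays STAR had r of 0.78 with ESR2 (Spearman rho 0.84) and 0.75 with PTGES (Spearman rho 0.51). With stage means removed these r were 0.65 and 0.32, and without the 2 arrays farthest from the member's median 0.60 and 0.55. Of 20 genes known to respond to oestrogen or progesterone in the uterus, 2 were measured and 0 passed: CTSD, a lysosomal protease, averaged 69.3, 52.8, 43.8 and 44.9 from small spherical to filamentous embryos, and ACP5, an acid phosphatase, 25.7, 17.5, 24.9 and 19.6.

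**Figure D4:**
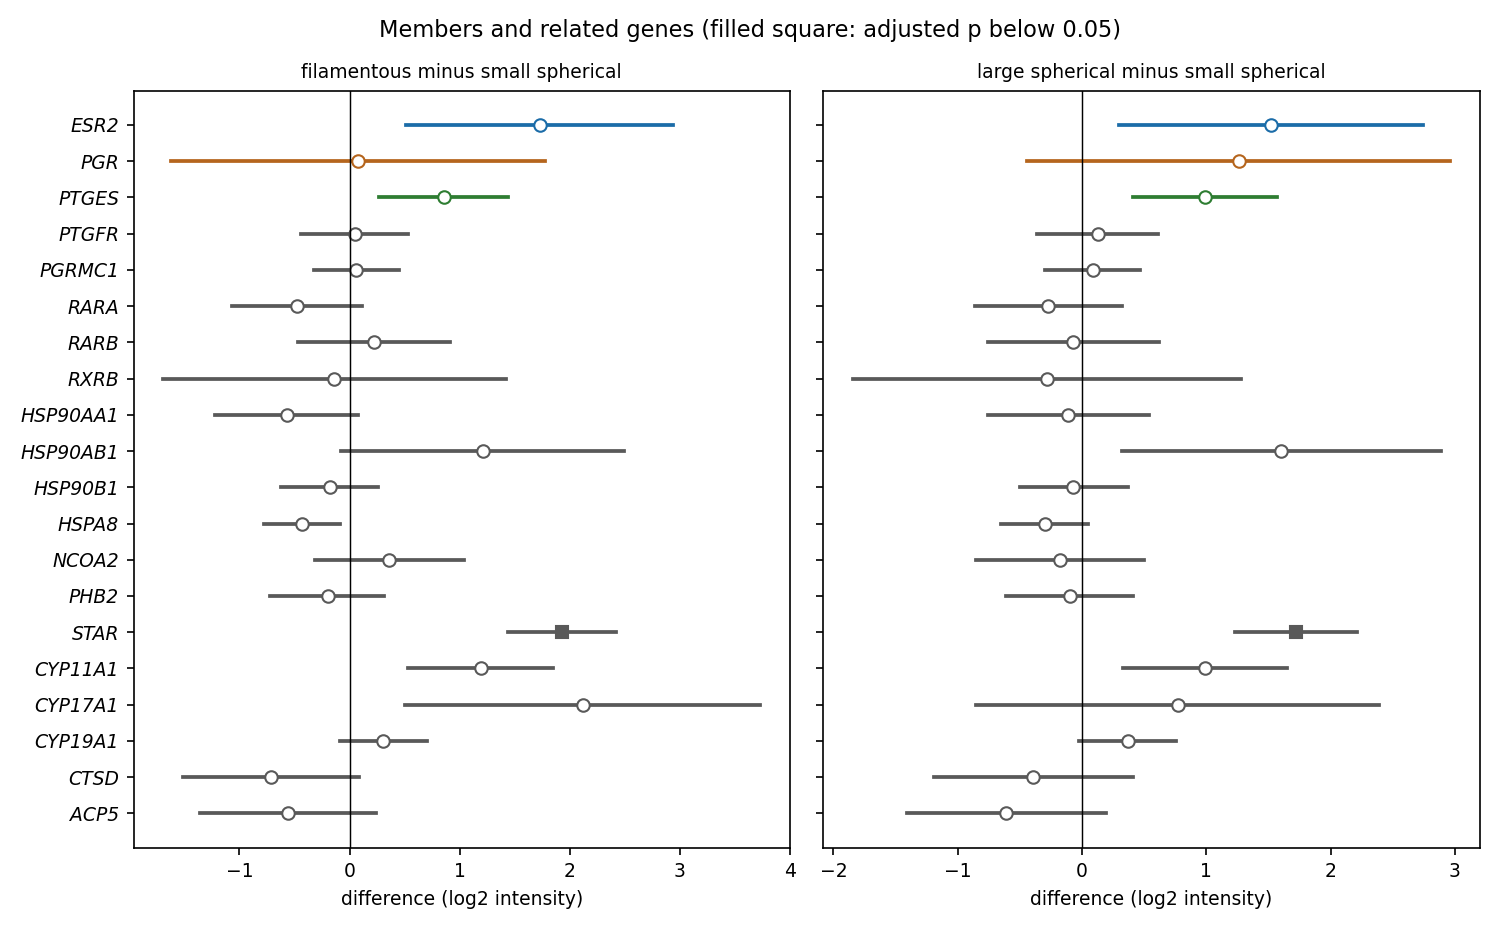
Log2 differences of ESR2, PGR, PTGES and the measured genes of the related lists, for filamentous minus small spherical (left) and large minus small spherical embryos (right), with a filled square where the adjusted p is under 0.05. STAR is the 1 gene with a filled square, at 1.93 and 1.72, and the right-hand point of HSP90AB1, which was at the maximum of 1 large spherical array, may be a lower bound.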

How the data were processed

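The authors deposited linear intensities of 1015 probes on each of 16 arrays, and no column of values was set aside (0). Per the labels, the starting material was total RNA, which was amplified before labelling and hybridisation to membranes. Scanning, background correction and normalization are not stated in the labels or the table. Array medians differed by at most 0.185 in log2 units, and the limit for taking the table as normalized was 0.2, so the deposited values were taken as normalized and transformed to log2 with no offset. A probe with 1 constant value was left out, which left 1014. The probe annotation gave 1 symbol to 676 probes, several to 15 and none to 324, and the symbols of the 3 members were found in the RefSeq gene table. A related gene with several probes was represented by the brightest.

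Stages and replicate numbers came from the sample titles. All 16 arrays entered a single limma fit (version 3.58.1, R 4.3.3; lmFit, contrasts.fit and eBayes) that gave each stage its mean, with a moderated F test and 6 contrasts, later minus earlier stage. Tests were two-sided, adjusted by Benjamini-Hochberg over 1014 probes, with a threshold of 0.05. The fit was tested on simulated data. The number of arrays limits the precision. In large minus small spherical, residuals of same-numbered arrays correlated at 0.219 to 0.495 in all 4 pairs, so the numbers may pair these arrays. The main fit had no term for the replicate number, so its SEs, intervals and p-values for that contrast do not use the pairing. A fit with the replicate number as a block was run as an alternative. In the 5 other contrasts at least 1 pair was under 0.1.

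Genes named were the 3 members, the 3 genes most like each, and up to 3 genes per related list with the largest F, with STAR as a base of comparison. The members and lists were chosen with earlier results of these data known. Alternatives were other normalizations, filters, offset, replicate block, weights, variance models, batch terms, subsets of arrays, removal of a trend along probe number (loess, span 0.1), and each array left out in turn. Plots were drawn with matplotlib 3.10.9.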

Additional observations from a re-analysis of the deposited data

Results flagged for a closer look

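Of 80 groups of 4 arrays examined (20 genes in 4 stages), 1 held an array far from the others by Dixon's criterion on the gap between the extreme array and its neighbour; chance flags about 5% of groups. NCOA2, a coactivator of steroid receptors, had an intensity of 47.5 in tubular replicate 2, against 72.2, 72.5 and 75.1 on the other tubular arrays, a gap of 0.897 of the range. No stage of ESR2, PGR or PTGES was picked out in this way.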

How the results depend on the processing

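The 3 genes together gave 0 calls in the F test and 0 among 18 pairs of gene and contrast. Without small spherical replicate 3 and filamentous replicate 1 the counts were 2 and 6; these 2 arrays hold the extreme values of both called genes. With single arrays left out the F test gave 0 to 0 and the contrasts 0 to 2. The replicate block changed no call of the 3 genes: in large minus small spherical the adjusted p was 0.189 for ESR2, 0.131 for PTGES and 0.492 for PGR. ESR2 and PTGES kept a positive difference from small spherical embryos in every alternative run; large minus small spherical ranged from 0.69 to 2.10 for ESR2 and from 0.82 to 1.14 for PTGES. Differences near 0 turned sign. PGR in tubular minus small spherical was -0.01 with median centring, -0.33 with quantile and -0.06 with cyclic loess normalization, -0.07 with an offset of 16, -0.28 on arrays 2 to 4, -0.38 without both arrays and -0.13 with the probe-number trend removed, which also gave -0.03 for PGR in filamentous minus small spherical. Arrays 2 to 4 gave 0.03 for ESR2 in tubular minus large spherical and 0.14 for PTGES in filamentous minus large spherical, which was 0.15 without both arrays; the cause was not tested. With single arrays left out, ESR2 ranged from -0.02 to 0.63 in filamentous and from -0.30 to 0.18 in tubular minus large spherical; PGR from -0.58 to 0.90 in filamentous minus small spherical, -0.59 to 0.89 in filamentous minus tubular and -0.38 to 0.67 in tubular minus small spherical; PTGES from -0.32 to 0.15 in filamentous minus large spherical and -0.13 to 0.33 in filamentous minus tubular. Over all alternatives, 1 to 17 probes passed the F test, 1 to 36 large minus small spherical, 3 to 29 tubular minus small spherical and 2 to 31 filamentous minus small spherical, against 4, 4, 4 and 9. Leaving out the dimmest 25% of probes removes ESR2 and PGR, and each member has 1 probe, so no choice of probe was possible. Signal near the lowest grid value limits PGR and, in small spherical embryos, ESR2.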

Other observations

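RPL13A, the gene most like PTGES, was measured by probe 425, which lies 2 numbers from the PTGES probe 427, and ranked first of 1013 probes in its correlation with PTGES. The other probes next to PTGES in number had r of -0.26 to 0.24 with it. Among the probes next to PGR in number, OXTR (probe 1011), the oxytocin receptor gene, had r of -0.46 with PGR; it was chosen after its values were seen. The values give no spot positions, and whether neighbouring numbers were neighbouring spots was not tested.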
